A study of Mus musculus with 2 samples.

Results

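A set of 10 genes that carry iron through the cell or set its sensitivity to ferroptosis, listed by name and not by their values, were followed in 4T1 cells kept with or without potassium oxalate. They were Tfrc, Fth1, Ftl1, Slc40a1, Slc11a2, Ncoa4, Hmox1, Slc7a11, Acsl4 and Aifm2, chosen because oxalate binds iron and causes oxidative stress, and all 10 were found among the 21911 genes listed. 4T1 is an established murine mammary cancer line of high metastatic potential, grown here in DMEM with fetal bovine serum. The 2 groups were cells given PBS and cells given potassium oxalate for 48 h, with 1 library each and no genetic change in either. The dose is 20 µM in the label of the treated sample and in the published methods, but 20 mM in the treatment protocol deposited with it. Polyadenylated RNA was sequenced, and each value is an FPKM, the fragments of a gene scaled to transcript length and to all mapped fragments, so that levels of different genes may be set side by side.

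Cells take up iron bound to transferrin through the transferrin receptor, carry it out of the endosome as ferrous iron, store it in ferritin and export it through ferroportin. Iron-regulatory proteins read the free iron pool and bind hairpins called iron-responsive elements in the untranslated regions of these mRNAs. Bound in front of the coding sequence such an element holds back translation, and bound behind it in the transferrin receptor mRNA it protects the mRNA from decay. Ferroptosis is a form of cell death in which iron-dependent peroxidation of membrane phospholipids goes unchecked, and it is held back by cystine import, glutathione and reduced ubiquinone.

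The iron-responsive elements are shown first because they mark a step at which iron can act on the members that hold them. The search was for a C, 5 bases, the loop CAGTGN with a last base other than G, and 5 bases that all pair with the first 5, G-T pairs included. It was run on the untranslated regions of the coding transcripts of GENCODE M21 (GRCm38) on the strand of the transcript. In 122 of 21179 genes with such regions the pattern was present (0.576%), and in 4 of the 10 members. In the windows of 30 bases below, written 5′ to 3′ as DNA, capitals mark the loop of 6 bases.
Fth1 site, 5′ untranslated region, chr19:9982732-9982761, plus strand: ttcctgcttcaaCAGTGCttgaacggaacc
Ftl1 site, 5′ untranslated region, chr7:45459778-45459807, minus strand: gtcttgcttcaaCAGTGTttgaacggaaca
Slc40a1 site, 5′ untranslated region, chr1:45925464-45925493, minus strand: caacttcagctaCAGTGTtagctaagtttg
Tfrc site a, 3′ untranslated region, chr16:32631219-32631248, plus strand: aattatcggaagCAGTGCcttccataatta
Tfrc site b, 3′ untranslated region, chr16:32631598-32631627, plus strand: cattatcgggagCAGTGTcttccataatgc
Tfrc site c, 3′ untranslated region, chr16:32631663-32631692, plus strand: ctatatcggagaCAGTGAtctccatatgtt
Tfrc site d, 3′ untranslated region, chr16:32631710-32631739, plus strand: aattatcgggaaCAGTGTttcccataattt

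The window of Fth1 ended 109 bases before the start codon, that of Ftl1 147 bases before it and that of Slc40a1 201 bases before it. In Tfrc the windows began between 883 and 1374 bases behind the stop codon, all in 1 of its 3 coding transcripts. The Fth1 site lay in 4 of 5 coding transcripts, that of Ftl1 in 1 of 2 and that of Slc40a1 in 1 of 4. In Slc11a2 and in the other 5 members these letters were not found, which says nothing of looser forms of the element.

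**Figure D1:**
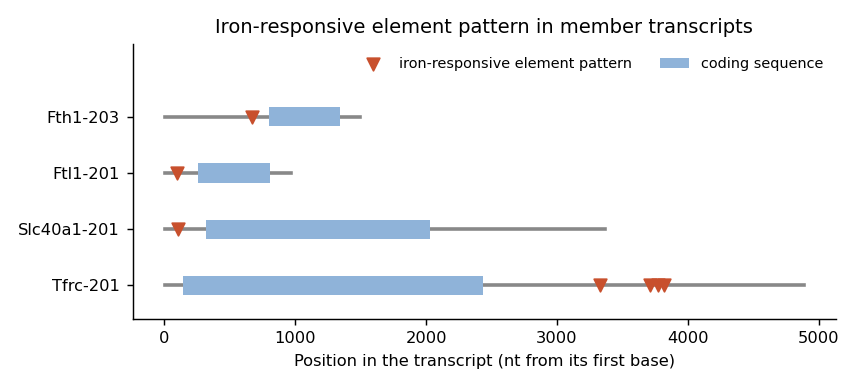
Position of the iron-responsive element pattern (triangles) in the longest coding transcript that holds it, in nucleotides from the first base, with the coding sequence as a bar and untranslated regions as a line. Fth1, Ftl1 and Slc40a1 each have 1 site in front of the coding sequence, and Tfrc has its sites behind it.

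Between the libraries the members differed little. The log2 change is log2((oxalate + 1)/(PBS + 1)), a scale that shrinks differences of low genes, and genes were kept where the mean FPKM of both libraries reached 1. Of the 10 members 9 passed this filter, and Slc40a1, at a mean of 0.9, did not. None of the 9 was raised or lowered at least 2-fold, where 0.292% of the 10267 genes above the filter were raised and 0.36% lowered. At 1.2-fold none was past the threshold either, where 4.75% of these genes were raised and 5.19% lowered. The median of the 9 was -0.018, beside 0.0031 over all genes above the filter. With oxalate 6 members were lower and 3 higher, where 49.0% of all genes above the filter were lower. The signs of Fth1, Hmox1 and Acsl4 turned, however, when the trend of log2 change with GC content was removed. With 1 library per condition no difference has a replicate check, so these are values of 2 libraries with no test between the conditions. In bulk RNA, a difference in the make-up of the culture and one in RNA per cell cannot be told apart.

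Precision was taken from the reads behind each value. FPKM values of short genes moved in steps worth 1 read, from which a total of 56715063 reads was estimated for PBS and 36467070 for oxalate. A 95% counting interval of the log2 ratio of the FPKM values, without a pseudocount, was computed from these estimated reads by the exact (Clopper-Pearson) method. It covers counting error only and not the spread between cultures. The interval left out 0 for 4 of the 10 members, and for 48.8% of the 10261 genes above the filter with a transcript length. Both figures rest on the mean length of coding transcripts, and for Ncoa4 the outcome depended on that choice.

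Tfrc encodes the receptor that carries transferrin-bound iron into the cell, and its mRNA holds the elements behind the coding sequence shown above. Tfrc (ENSMUSG00000022797, chromosome 16, 32608920 to 32632794) was at 180.3 FPKM with PBS and at 175.21 with oxalate, a log2 change of -0.041. Relative to PBS the difference was -2.82%, with a ratio interval from -0.071 to -0.012, and 74.5% of genes above the filter differed by more. It ranked 447th of all genes listed in the PBS library and 464th in the oxalate library.

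Slc11a2 encodes the divalent metal transporter DMT1, which moves ferrous iron across endosomal and plasma membranes. Slc11a2 (ENSMUSG00000023030, chromosome 15, 100387898 to 100425072) stood at 39.12 FPKM with PBS and at 41.74 FPKM with oxalate. This was the largest difference upwards among the members, with a log2 change of 0.091 and a ratio interval from 0.018 to 0.17. The uptake genes Tfrc and Slc11a2 thus lay on either side of 0, the former lower and the latter higher, and 48.0% of genes above the filter differed by more than Slc11a2.

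Ferritin, the iron store of the cell, is a shell of heavy and light chains, of which the heavy chain oxidizes iron and the light chain helps to lay it down as mineral. Fth1, the heavy chain (ENSMUSG00000024661, chromosome 19, 9980598 to 9985098), was at 3781.58 FPKM with PBS and at 3839.56 with oxalate, rank 12 in both libraries. Ftl1, the light chain (ENSMUSG00000050708, chromosome 7, 45457944 to 45459884), was at 2916.57 FPKM with PBS and at 2685.84 with oxalate, ranks 15 and 16. Both chains were among the most abundant mRNAs of these cells, and together they held 1.18% of the FPKM sum with PBS and 1.17% with oxalate.

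The ferritin chains differed in opposite directions. The log2 change of Ftl1 was -0.12, the largest of the members, with a ratio interval from -0.13 to -0.11, whereas that of Fth1 was 0.022 (interval 0.011 to 0.033). The heavy to light ratio of FPKM was therefore 1.30 with PBS and 1.43 with oxalate. Of the genes above the filter, 36.1% differed by more than Ftl1 and 86.3% by more than Fth1. The sign of Fth1 depended on the treatment of base composition: with the trend of log2 change with GC content taken away it was -0.0066, and Ftl1 was at -0.14.

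The level of Ftl1 is uncertain, because 94.9% of the 31-base words of its longest coding transcript recur in other annotated genes, among them many processed pseudogenes. The nearest copy, Ftl1-ps1, holds 80.6% of these words and was at 24.16 FPKM with PBS and at 26.13 with oxalate, the other way from Ftl1. Summed over Ftl1 and Ftl1-ps1 the values were 2940.73 and 2711.97 FPKM, a log2 change of -0.12. Ftl1-ps1 is so small a part of this sum that it had to follow Ftl1, so it does not settle how shared reads were assigned. Of 25 other genes that hold at least 1% of the words, only 2 were listed, and the rest have no value here. For Fth1 7.92% of the words recur elsewhere, and the 6 testis-type ferritin heavy chain genes Fthl17a to Fthl17f were listed at 0 in both libraries.

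Ncoa4 encodes the receptor that delivers ferritin to the lysosome, where its iron is set free. Ncoa4 (ENSMUSG00000056234, chromosome 14, 32159865 to 32179855) was at 27.22 FPKM with PBS and at 25.54 with oxalate, a log2 change of -0.089. The ratio interval ran from -0.19 to 0.0044, which takes in 0, so no difference could be detected at the mean length of its coding transcripts. With the longest coding transcript the width of the interval was 0.12 in place of 0.19. That is too narrow around the log2 ratio of -0.092 to reach 0, so the outcome depended on the length used. A share of 44.6% of its 31-base words recurs elsewhere, nearly all in the processed pseudogene Gm6768, so its level is uncertain too.

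Ferroportin, the product of Slc40a1, is the exporter of cellular iron and the lowest member by a wide margin. Slc40a1 (ENSMUSG00000025993, chromosome 1, 45908068 to 45926523) was at 0.89 FPKM with PBS and at 0.91 with oxalate, which correspond to an estimated 58 and 38 reads. The ratio interval ran from -0.60 to 0.64, a range that takes in 1.5-fold in either direction. Among its usual partners, the ferroxidase Cp was at 17.06 and 18.58 FPKM, whereas Heph and Hephl1 were listed at 0 in both libraries.

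Hmox1 encodes haem oxygenase 1, which breaks down haem, releases its iron and is a common reporter of oxidative stress. Hmox1 (ENSMUSG00000005413, chromosome 8, 75093621 to 75100589) was at 42.02 FPKM with PBS and at 42.39 with oxalate, a log2 change of 0.012 with a ratio interval from -0.062 to 0.087. Its sign turned to -0.016 with the GC trend taken away. It is the one member with a single coding transcript, and none of its 31-base words recurs in another gene. Of the genes above the filter 92.2% differed by more.

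Slc7a11 encodes the cystine carrier of system xc-, which supplies cysteine for glutathione. Slc7a11 (ENSMUSG00000027737, chromosome 3, 49892526 to 50443614) was at 9.65 FPKM with PBS and at 9.25 with oxalate, a log2 change of -0.055 and a ratio interval from -0.14 to 0.021. With the GC trend taken away its change was -0.016. Its heavy-chain partner Slc3a2 was at 145.6 and 131.47 FPKM, a log2 change of -0.15 with a ratio interval from -0.20 to -0.097. Gpx4, the glutathione peroxidase that reduces lipid peroxides in membranes, was at 292.08 and 285.4 FPKM, with an interval from -0.071 to 0.0041.

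Acsl4 activates long polyunsaturated fatty acids for their entry into phospholipids and so provides the substrate of ferroptosis. Acsl4 (ENSMUSG00000031278, chromosome X, 142317993 to 142390535) was at 15.01 FPKM with PBS and at 14.84 with oxalate, a log2 change of -0.015 with a ratio interval from -0.086 to 0.053. With 38.7% GC in its coding transcripts it was the most AT-rich member, and with the GC trend taken away its change was 0.057. Lpcat3, which inserts the activated fatty acids into phospholipids, was at 21.18 and 21.33 FPKM.

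Aifm2 encodes FSP1, an oxidoreductase that keeps ubiquinone reduced at the plasma membrane and acts beside Gpx4. Aifm2 (ENSMUSG00000020085, chromosome 10, 61715263 to 61739260) was at 5.6 FPKM with PBS and at 5.52 with oxalate, a log2 change of -0.018 with a ratio interval from -0.21 to 0.17. With the GC trend taken away its change was -0.053. Nqo1, a quinone reductase of the cytosol, was at 13.54 and 14.46 FPKM, with an interval from -0.036 to 0.22. For both genes the interval took in 0.

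**Figure D2:**
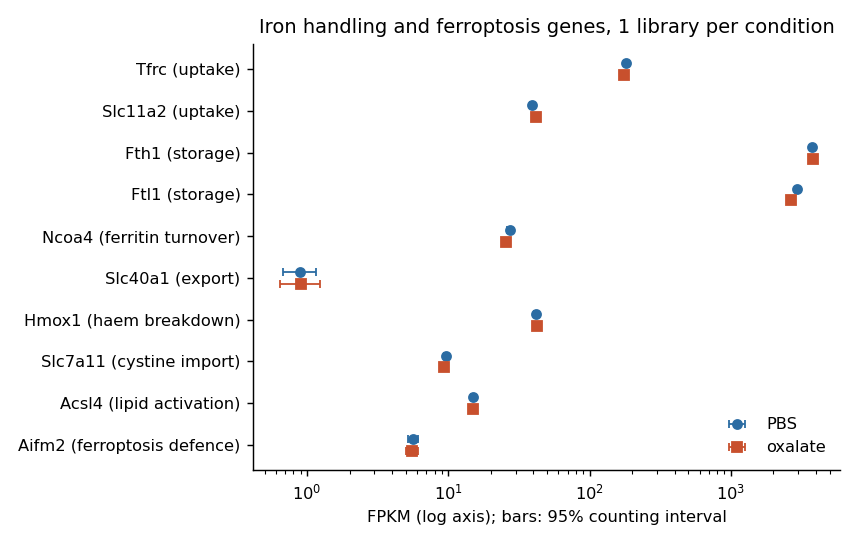
FPKM of each member in the PBS library (circles) and the oxalate library (squares) on a log axis, with the exact Poisson 95% interval of the estimated reads as bars. Both ferritin chains lie at 2685.84 FPKM or above, and Slc40a1 lies below 1 FPKM in both libraries.

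The members spanned more than 3 orders of magnitude, and their order was the same in both libraries. From high to low it was Fth1, Ftl1, Tfrc, Hmox1, Slc11a2, Ncoa4, Acsl4, Slc7a11, Aifm2 and Slc40a1. Neighbours in this order were separated by more than their exact Poisson 95% counting intervals, except Hmox1 and Slc11a2 in the oxalate library. Intervals of that pair, 40.7 to 44.1 and 40.1 to 43.4 FPKM, overlapped. All these intervals cover counting error at the mean length of coding transcripts. They leave out the choice of length and the reads that Ftl1 and Ncoa4 may share with their copies. The Tfrc level was 4.77% of that of Fth1 with PBS and 4.56% with oxalate.

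**Figure D3:**
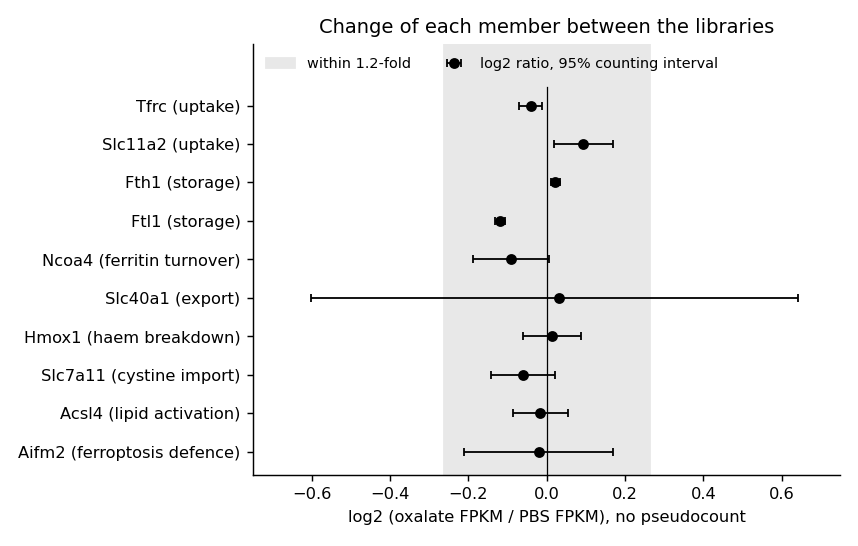
Log2 ratio of oxalate to PBS FPKM without a pseudocount for each member (points), with its exact 95% counting interval (bars) and the range within 1.2-fold in grey. All points lie within the grey range, and the intervals of Tfrc, Slc11a2, Fth1 and Ftl1 leave out 0.

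**Figure D4:**
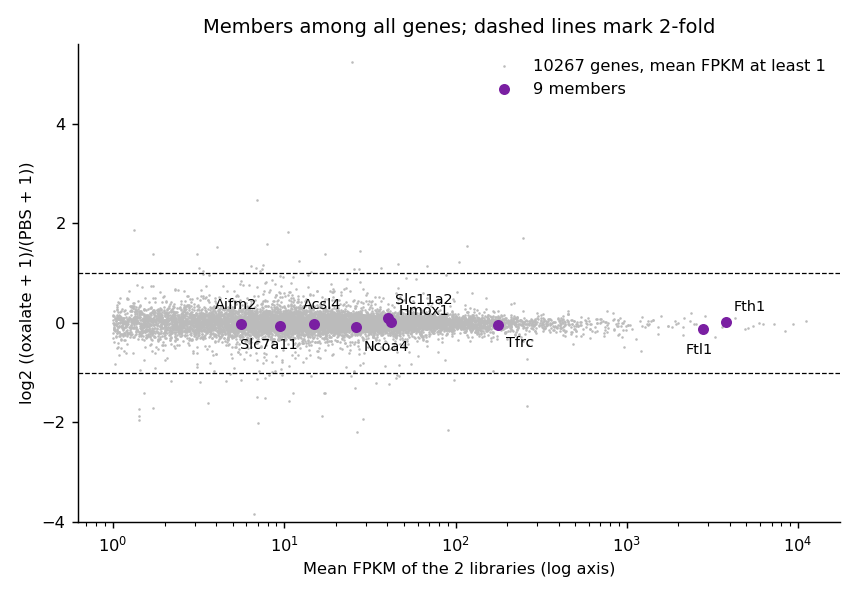
Log2 change against the mean FPKM of the libraries (log axis) for the 10267 genes above the filter (grey) and the 9 members among them (large points). The members lie between -0.12 and 0.091, well inside the dashed lines at 2-fold.

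Beyond the iron-responsive elements of 4 members, transcript number, base composition and promoter motifs were compared. Of the 10, 9 have several coding transcripts, as do 74.2% of genes above the filter, and their median GC content was 50.7% beside 51.0%. A promoter window of 300 bases, most of it in front of the start, was taken from RefSeq on GRCm38.p6 for 7 members, and a gene was counted where any of its starts held the motif. The antioxidant response element TGACNNNGC was found on either strand in 1 of the 7, Ncoa4, and in 3781 of all 27025 genes with a promoter. The hypoxia response core ACGTG was found in Ncoa4 and Tfrc and in 21.8% of all genes, and the ATF4 element TGATGNAA in Slc7a11 and in 4.51% of all genes. These letters are no proof of binding, and their absence from so short a window says nothing of the factor.

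Beyond the members, 10 lists of iron and ferroptosis genes were read in the same way. They hold 151 genes, of which 150 were listed and 126 passed the filter. Leaving out the members, 4 of 117 genes were at least 1.2-fold higher with oxalate and 3 were lower by as much. Both directions together came to 5.98% of the 117. Of all genes above the filter 4.75% were raised and 5.19% lowered. Each of these is a share of 1 direction, so the 5.98% belongs beside their sum. None of the 117 was past 2-fold, and their median was -0.017.

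Among genes of iron uptake and release from endosomes, 6 of 8 above the filter were higher with oxalate and 2 lower, with a median of 0.11. Of all genes above the filter 50.6% were higher. The higher genes of the list included Lrp1, Mcoln1 and Cd63 beside Slc11a2, Slc39a14 and Steap3, and the lower ones were Tfrc and Steap2. Steap3, the endosomal ferrireductase that readies iron for DMT1, was past 1.2-fold, at 3.4 FPKM with PBS and at 5.86 with oxalate. The log2 change was 0.64, and without the pseudocount the log2 ratio was 0.79, with an interval from 0.62 to 0.95. Steap3 has 5 coding transcripts. Slc39a14, the ZIP14 carrier of free iron, was at 40.13 and 44.12 FPKM, a log2 change of 0.13. The receptor Tfr2 and transferrin itself, Trf, were listed at 0 in both libraries.

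In the storage list 3 of 6 genes were higher and 3 lower, and none was past 1.2-fold. The median was 0.00046 and turned to -0.027 with the GC trend taken away. The iron chaperones that load ferritin, Pcbp1 and Pcbp2, were at 262.4 and 258.59 FPKM and at 142.97 and 147.49 FPKM in the same order of libraries. In the export list only Cp passed the filter.

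Iron sensing had 5 genes above the filter, none past 1.2-fold, with a median of -0.099 that was -0.046 with the GC trend taken away. Ireb2, which encodes the iron-regulatory protein IRP2, was at 15.28 FPKM with PBS and at 12.91 with oxalate, a log2 change of -0.23 with a ratio interval from -0.33 to -0.15. Aco1, the cytosolic aconitase that becomes IRP1 without its iron-sulfur cluster, was at 19.39 and 21.08 FPKM, with an interval from 0.052 to 0.19. Fbxl5, which targets IRP2 for degradation when iron is plentiful, was at 16.9 and 18.96 FPKM, with an interval from 0.077 to 0.26. The mRNA of IRP2 was thus lower, and those of IRP1 and of Fbxl5 were higher, in the oxalate library than in the PBS library, all by less than 1.2-fold in log2 change.

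Above the filter were 17 haem genes, 10 of them higher and 7 lower, and their median of 0.012 and mean of -0.0088 had opposite signs. Hmox2, the constitutive haem oxygenase, was at 36.16 FPKM with PBS and at 44.26 with oxalate, a log2 change of 0.28 with a ratio interval from 0.20 to 0.39. Uros, an enzyme of haem synthesis, was at 5.4 and 3.69 FPKM, a log2 change of -0.45. Without the pseudocount its log2 ratio was -0.55, with an interval from -0.86 to -0.24. Bach1, the haem-sensing repressor of Hmox1, was at 5.12 and 4.7 FPKM. Hmox2 was past 1.2-fold upwards and Uros downwards, but with the GC trend taken away Hmox2 was at 0.26, just short of 1.2-fold, and Uros at -0.47. Hmox1 was past 1.2-fold in neither case.

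All 28 genes of mitochondrial iron and iron-sulfur cluster assembly passed the filter, 20 lower and 7 higher with oxalate, beside 49.0% of all genes that were lower. The median was -0.044, and -0.068 with the GC trend taken away. Glrx5, a glutaredoxin that hands on newly made clusters, was the one gene past 1.2-fold, at 48.99 FPKM with PBS and at 39.85 with oxalate, a log2 change of -0.29 with a ratio interval from -0.37 to -0.23. Isca1 and Isca2, which build larger clusters, were at 11.96 and 9.84 FPKM and at 19.78 and 16.48 FPKM.

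Cystine and glutathione genes had a median of -0.0030, or -0.016 with the GC trend taken away, with 6 of 13 higher and 7 lower and none past 1.2-fold. The mean of the list was 0.011, of the other sign. Chac1 came nearest to the threshold, at 7.87 FPKM with PBS and at 9.56 with oxalate, a log2 change of 0.25. Its ratio interval ran from 0.12 to 0.44, and without the pseudocount it was 1.21-fold higher. In the lipid list 10 of 16 were higher, 6 were lower and the median was 0.023. Acsl1, which activates saturated and monounsaturated fatty acids, differed most among the list genes above the filter. It was at 5.41 FPKM with PBS and at 10.29 with oxalate, a log2 change of 0.82. Without the pseudocount the log2 ratio was 0.93, with an interval from 0.75 to 1.10. Acsl1 has 7 coding transcripts, and its relative Acsl4 was not past 1.2-fold.

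Of 14 genes in the list named quinone-based defence 6 were higher, 8 were lower and the median was -0.038. The list is broader than its name. Among its lower genes were Mgst1 and Dhcr7, which are not quinone enzymes, at log2 changes of -0.26 and -0.11. Gch1, which makes the cofactor tetrahydrobiopterin, was at 1.0 FPKM with PBS and at 1.63 with oxalate, an estimated 157 and 165 reads and a log2 change of 0.40. Coq6, an enzyme of ubiquinone synthesis, was at 10.34 and 7.96 FPKM, a log2 change of -0.34 with a ratio interval from -0.56 to -0.20. Among 18 regulators and markers of ferroptosis 13 were lower and 5 higher, beside 49.0% of all genes that were lower, and none was past 1.2-fold. The median of these regulators and markers was -0.034, and -0.043 with the GC trend taken away. In that list Nfe2l2, the antioxidant transcription factor NRF2, was at 73.43 and 76.83 FPKM, and its inhibitor Keap1 was at 24.76 and 24.12 FPKM.

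**Figure D5:**
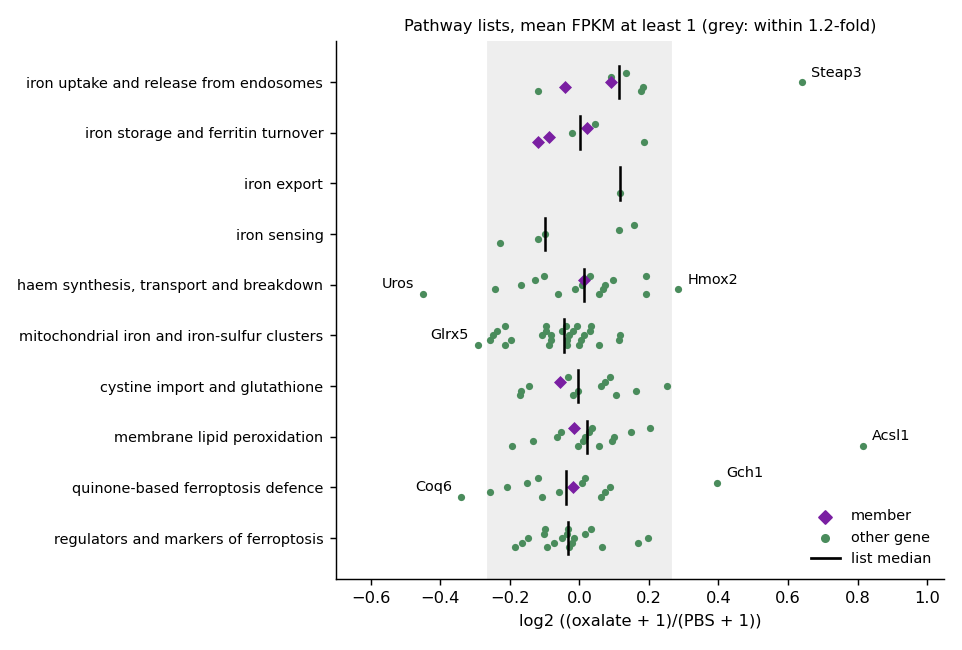
Log2 change of the genes above the filter in each of the 10 lists, with members as diamonds, other genes as circles, the list median as a bar and the range within 1.2-fold in grey. The 7 named genes outside the grey range are Steap3, Hmox2, Acsl1 and Gch1 to the right and Uros, Glrx5 and Coq6 to the left.

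The label of the cells was checked against markers. All 8 epithelial markers were above the filter, with summed levels of 2329 FPKM for PBS and 2390 FPKM for oxalate. Of 8 markers of macrophages and other leukocytes 3 were above it (Cd14, Cd68 and Csf1r), with 66.4 and 65.3 FPKM summed over the list, whereas the defining Ptprc, Adgre1, Itgam and Cd163 were listed at 0 in both libraries. The erythroid markers, which bear on haem and iron genes, summed to 0.83 and 1.04 FPKM, the endothelial ones to 0.08 and 0.11 FPKM, and the hepatocyte ones to 0.09 and 0 FPKM.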

How the data were processed

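The authors sequenced oligo(dT)-enriched RNA of PBS- and oxalate-treated 4T1 cells on an Illumina HiSeq2500, 1 library each, and deposited 1 FPKM value per gene and library, rounded to 2 decimals. Their processing notes name Bowtie2 2.2.8 and TopHat2 2.1.1. The genome build, annotation and quantification tool are not given in the sources used here. FPKM divides by a transcript length, so a gene with several transcripts depends on how reads were shared among them.

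Symbols, coordinates and lengths came from GENCODE M21 (GRCm38), in which 21848 of 21911 identifiers matched. Genes whose mean FPKM reached 1 were compared with a pseudocount of 1 and no test. Reads were estimated as FPKM times the mean length of coding transcripts, over the step of 1 read fitted on 81 (PBS) and 74 (oxalate) values of genes under 0.7 kb with 1 transcript and up to 10 reads. For genes of several coding transcripts below 0.7 kb, 97.6% and 91.9% of low values lay within 0.2 of a whole read. GC content was binned in 10.

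The members and lists were chosen with earlier results of these data known. Named genes were the members, 14 set pathway genes and every list gene past 1.2-fold, and further genes named were chosen after their values were seen. Alternatives were pseudocounts of 0.1 and 0.001, rescaling, removal of the GC trend, other filters and thresholds, the mean, and the longest transcript. The scripts were tested on simulated data. Scripts ran in Python 3.11.15 with scipy 1.17.1 for the intervals, pandas 2.3.3 and numpy 2.4.6 for tables, and matplotlib 3.10.9 for plots.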

Additional observations from a re-analysis of the deposited data

How the results depend on the processing

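No paired analysis was possible because PBS and oxalate were each sequenced once, so that no replicate could be left out either. No member was past 1.2-fold or 2-fold under any alternative run, and the median of the members, or their mean, stayed between -0.023 and -0.016. Of 40 member values under alternatives 3 moved by more than the reach of their counting interval, all with the GC trend removed (Fth1 -0.0066, Ftl1 -0.14 and Acsl4 0.057), and 3 had another sign there (Fth1, Hmox1 and Acsl4). With the longest coding transcript the width of the interval narrowed from 1.24 to 0.71 for Slc40a1, from 0.15 to 0.090 for Slc11a2 and from 0.19 to 0.12 for Ncoa4.

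The number of list genes past 1.2-fold depended on the setting. With a mean FPKM of at least 5 it went from 1 to 0 for iron uptake, from 2 to 1 for haem and from 2 to 1 for quinone-based defence, since fewer genes were kept. With a pseudocount of 0.1 it went from 1 to 2 for iron-sulfur clusters from 0 to 1 for cystine and glutathione, and from 2 to 3 both for haem and for quinone-based defence. With the GC trend removed, an alternative for the lists chosen after the values were seen, it went from 2 to 1 for haem, where Hmox2 was lost, and from 1 to 3 for iron-sulfur clusters. List medians differed by over 1.5 times in further cases, with the GC trend removed for export (0.19) and lipids (0.037), and with a mean FPKM of at least 5 for haem (0.044) and quinone-based defence (-0.058). The cause was not tested. Depth limits Slc40a1 most.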
